A study of Hordeum vulgare with 6 samples.

Results

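The regions described here are the 429 stretches of barley chromosome 1H that carried a peak of H3K27me3 in each of 3 replicate libraries. They were found by joining the peaks of the 3 lists wherever peaks overlapped or touched and keeping the joined regions on 1H with a peak in every list. On 1H, 429 of 846 joined regions met this rule (50.7%), against 48.4% on the other 6 chromosomes, and the regions of 1H are 429 of 3359 in all. The members were chosen by the positions of the same peaks whose positions, widths and folds are described below, so these values are a description and carry no test.

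The libraries were made by chromatin immunoprecipitation and sequencing (ChIP-seq) from hand-dissected endosperm of the 6-rowed spring barley Hordeum vulgare cultivar Morex, 16 days after pollination, from plants grown in long days. An antibody against histone H3 trimethylated at lysine 27 was used for 3 libraries, and 3 input libraries of the same tissue, stage and genotype were not analysed here as measurements of their own. All libraries share 1 genotype, 1 tissue and 1 stage, and the labels mention that sheared chromatin was pooled before the precipitation without saying what was pooled. It is thus not stated if each replicate came from its own tissue or from an aliquot of shared chromatin, and each SD over the 3 replicates may hold technical spread only. Peak lists hold no reads, so the depth of each library is unknown.

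H3K27me3 is set by Polycomb repressive complex 2 and marks genes that are kept silent in a given tissue. The endosperm stores the starch of the cereal grain, and Polycomb complexes are known from Arabidopsis and cereals to act in its development. Barley chromosomes have gene-rich ends that recombine often and a long, gene-poor middle that rarely recombines. The short arm of 1H is known for several of the hordein storage protein loci and for the Mla powdery mildew resistance locus near its end. Barley assemblies usually count bases from the short-arm end. The sources used here name no genome build and no centromere, so the text speaks of the start and the end of the coordinates rather than of arms, and names no genes at these positions.

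The members on 1H were concentrated at the start of the chromosome. Replicate 1 had 530 peaks on 1H, replicate 2 had 671 and replicate 3 had 766, and of these 461, 460 and 466 lay in the members. The near-equal numbers within the members follow from the rule, which asks for a peak of every replicate in each member. The members spanned 21.2 Mb after joining, which is 4.10% of the 516.504 Mb up to the last peak on the chromosome. Counting only the bases under each replicate's own peaks in the members, 3.63%, 3.80% and 3.82% of 1H were covered in replicates 1, 2 and 3 (3.75% ± 0.10, SD, n = 3). The latter measure is used for every covered share from here on. Among the 7 chromosomes the covered share of 1H was second to that of 7H (4.97%), and the lowest was that of 4H (1.90%). The share of 5H (3.69% ± 0.083, SD, n = 3) was within the spread of 1H, though below it in every replicate.

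In the first 30 Mb, which make up 5.81% of its length, 1H was covered for 24.3%, 25.1% and 25.0% in replicates 1, 2 and 3 (24.8% ± 0.40, SD, n = 3). Beyond 30 Mb the same replicates covered 2.36%, 2.48% and 2.52% (2.45% ± 0.085, SD, n = 3). The start was thus covered 10.1 ± 0.21 times as densely as the rest (SD, n = 3), and the values of the start and the rest lay far apart in each replicate. The first 30 Mb held 38.4% ± 0.48 of all covered sequence of 1H (SD, n = 3) and 84 of its 429 members (19.6%). The larger share of sequence than of members reflects the wider regions at the start, which are described further on.

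Divided into 10 Mb windows from coordinate 0, the chromosome had its highest covered shares in its first 4 windows. Window 1 was covered for 27.4%, 28.4% and 28.8% in replicates 1, 2 and 3, and window 2 for 28.3%, 28.9% and 29.3%. Window 3 was covered for 17.2%, 17.9% and 16.8%, and window 4, which lies just past the first 30 Mb, for 15.7%, 15.7% and 15.9%. Window 2 was slightly higher than window 1 in every replicate, and both lay above windows 3 and 4 in every replicate. Window 5 dropped to 2.33% ± 0.063 (SD, n = 3). The dense start of 1H therefore reached to about 40 Mb, and its window 4 is counted with the rest of the chromosome when 30 Mb is the limit.

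**Figure D1:**
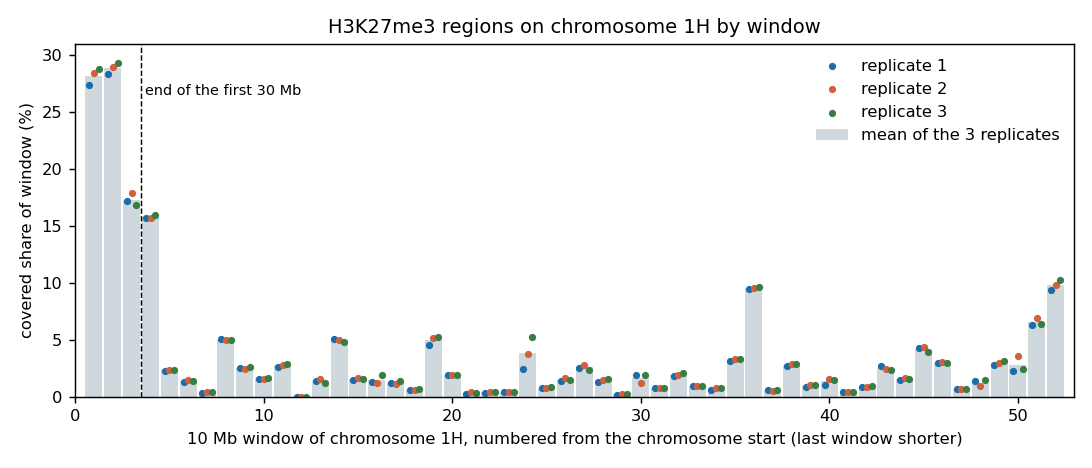
Covered share of each 10 Mb window of 1H in percent of the window, numbered from the chromosome start, for replicates 1, 2 and 3 (points) and their mean (bars); the dashed line marks the end of the first 30 Mb. The first 4 windows lie between 15.7% and 29.3% in every replicate, and window 5 falls to a mean of 2.33%.

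Among the 48 windows beyond 40 Mb the median covered share was 1.53%, and 5 of them reached 5%. The highest of these was the last window of the chromosome, which is shorter than the others at 6.50 Mb, with 9.41%, 9.86% and 10.3% in replicates 1, 2 and 3. The window from 350 to 360 Mb followed with 9.43%, 9.54% and 9.67%, which is within the spread of the last window. The window from 500 to 510 Mb had 6.33%, 6.89% and 6.37%. The windows from 70 to 80 Mb (5.03% ± 0.016) and from 180 to 190 Mb (5.01% ± 0.39) did not differ from each other beyond their spread (SD, n = 3 each). Covered shares under 1% were found in 16 of the 52 windows.

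The lowest windows were those from 110 to 120 Mb, from 280 to 290 Mb, from 200 to 210 Mb, from 210 to 220 Mb and from 60 to 70 Mb. The first of these held no member, while 3 regions with a peak in 2 lists and 2 with a peak in 1 list lay in it. It falls within the widest interval without a member, 11.4 Mb between 108627533 and 120055106. The others were covered for 0.254% ± 0.051, 0.333% ± 0.12, 0.384% ± 0.059 and 0.405% ± 0.043 in the order given (SD, n = 3 each), and the window from 280 to 290 Mb lay below the others with a member in every replicate, while those others overlapped. The replicates differed most in the window from 230 to 240 Mb, with 2.48%, 3.77% and 5.29% in replicates 1, 2 and 3. In that window lies a member from 237292018 to 237470243 of 178 kb in which replicate 1 had 1 peak covering 1.69 kb, replicate 2 had 11 peaks covering 55.4 kb and replicate 3 had 1 peak covering the whole region. This member was chosen for mention after its values were seen, and its folds of 2.17, 2.06 and 2.19 are among the low ones on the chromosome.

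Set beside the other chromosomes, the first 30 Mb of 1H had the highest covered share of the 7 in each of the 3 replicates. The next was 6H with 22.1% ± 0.65, followed by 2H with 19.7% ± 0.26, 7H with 18.4% ± 0.62, 3H with 10.1% ± 0.29, 5H with 8.54% ± 0.15 and 4H with 4.49% ± 0.35 (SD, n = 3 each). The difference between 1H and 6H within a replicate was 2.97, 2.44 and 2.72 percentage points in replicates 1, 2 and 3 (2.71 ± 0.26, SD, n = 3), and that between 1H and 4H was 20.3 ± 0.16 points. Beyond 30 Mb the order was different, since 1H with 2.45% lay below 5 of the other chromosomes, of which 6H (2.50% ± 0.12, SD, n = 3) was within its spread, and above 4H (1.77%). Measured over the first 5% of each chromosome's length in place of a fixed 30 Mb, 1H with 24.8% ± 0.53 (SD, n = 3) was again above the highest other chromosome, 6H with 23.4%.

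The first place of 1H rested on a few wide regions and on where the start was taken to end. With the 3 widest regions of the first 30 Mb left out on every chromosome, the covered share of 1H fell to 14.9% and lay below that of 2H, with a difference of -0.57 ± 0.15 percentage points (SD, n = 3). Over the first 40 Mb the difference between 1H and 7H was -0.64 ± 0.48 points (SD, n = 3), and window 4 of 7H was the most covered full window of all, with 37.4%. Among the 417 full 10 Mb windows of the 7 chromosomes, windows 2 and 1 of 1H were 2 of the 10 most covered, and all of the first 4 windows of 1H were among the top 25.

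**Figure D2:**
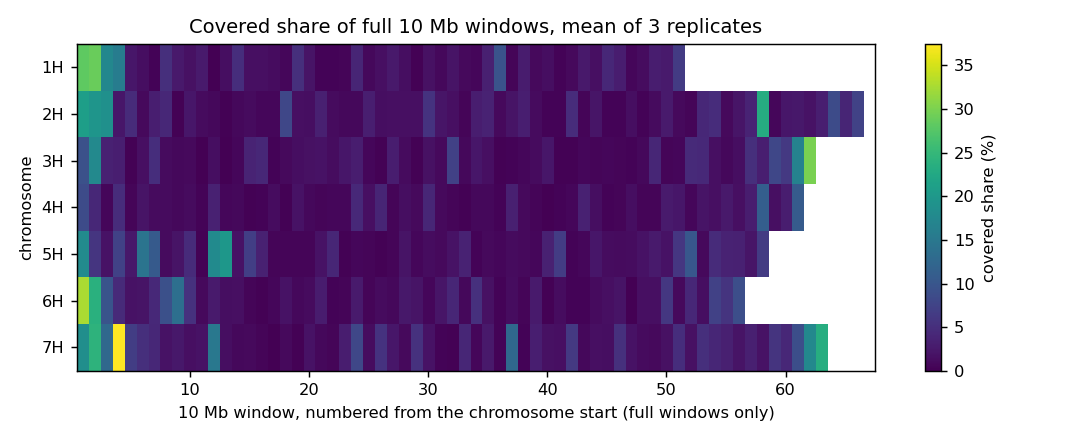
Covered share of each full 10 Mb window in percent (colour, mean of the 3 replicates) for the 7 chromosomes (rows), with windows numbered from the chromosome start. The first 4 windows of 1H form a block of high values, and no such block appears among the full windows at its other end. The shorter last window of each chromosome is not drawn, and on 1H it was covered for a mean of 9.85%.

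The 2 ends of 1H were unequal. The last 30 Mb were covered for 5.03%, 5.78% and 5.32% in replicates 1, 2 and 3 (5.38% ± 0.38, SD, n = 3), so that the first 30 Mb carried 4.62 ± 0.25 times as much covered sequence as the last 30 Mb (SD, n = 3). The ratio was 4.83, 4.34 and 4.69 in the 3 replicates. The next highest ratio was that of 6H (2.66 ± 0.022), followed by 2H (2.09 ± 0.0049), 5H (1.15 ± 0.023), 7H (0.918 ± 0.023), 4H (0.760 ± 0.065) and 3H (0.563 ± 0.0092) (SD, n = 3 each). The start was the more covered end on 4 of the 7 chromosomes and the less covered end on 3. On 1H the start was the highest and the end the lowest of the 7 chromosomes by mean covered share. At the end the next lowest was 4H, with 5.92% ± 0.091 (SD, n = 3), and 1H lay below it in every replicate.

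**Figure D3:**
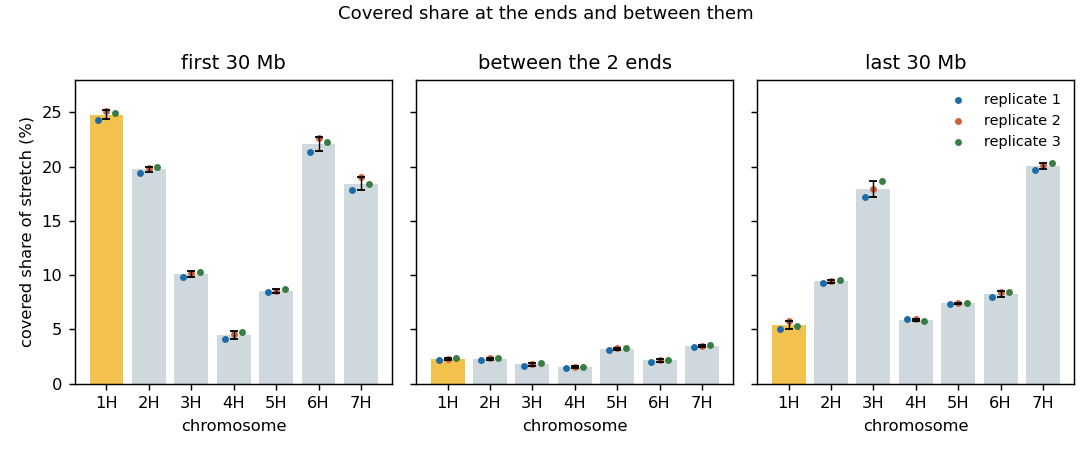
Covered share in percent of the first 30 Mb, the sequence between the ends and the last 30 Mb of each chromosome, for replicates 1, 2 and 3 (points), with the mean (bars, 1H in yellow) and SD (error bars, n = 3). On 1H the first 30 Mb reach 24.8% and the last 30 Mb 5.38%.

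When the chromosome was divided at its midpoint, the part before the midpoint of 1H held 68.0%, 67.7% and 68.2% of the covered sequence in replicates 1, 2 and 3 (68.0% ± 0.24, SD, n = 3). This was the highest share of the 7 chromosomes, with 6H (65.4% ± 0.17) and 5H (60.7% ± 0.31) next and 3H (39.9% ± 0.37) the lowest (SD, n = 3 each). The part before the midpoint of 1H includes the first 30 Mb, which alone held 38.4% ± 0.48 of its covered sequence (SD, n = 3). The part after the midpoint was covered for 2.40% ± 0.067, close to the 2.45% ± 0.085 of all sequence beyond 30 Mb (SD, n = 3 each). By number the members of 1H were split more evenly, with 235 of 429 before the midpoint (54.8%). On 1H, 50% of the joined length was reached within 87.0 Mb of the start, against 92.6 Mb on 6H and 142 Mb on 5H.

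Between the 2 ends the values of 1H lay within the range of the other chromosomes. Its interior was covered for 2.26% ± 0.077 (SD, n = 3), against a range from 1.54% on 4H to 3.47% on 7H and a median of 2.22% over the other 6. This interior includes the dense window 4 of 1H, from 30 to 40 Mb. Over all sequence beyond 40 Mb, the end included, 1H was covered for 2.17% ± 0.086 (SD, n = 3). That was number 6 of 7 and below the median of 2.62% over the other 6. Its interior held 296 members, or 0.648 per Mb, against 0.596 per Mb as the median of the other 6. The number of members per Mb in the first 30 Mb was 2.80 on 1H and also 2.80 on 6H. The start of 1H thus held as many members as that of 6H, and their median width was lower, at 30.6 kb on 1H against 33.1 kb on 6H.

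Member regions of 1H were mostly narrow, with a few very wide domains. The median width was 15.1 kb, the narrowest was 2.35 kb and the widest 1333 kb. In the first 30 Mb the median width was 30.6 kb with a lower quartile of 12.0 kb, and beyond 30 Mb it was 13.999 kb with quartiles of 9.41 and 35.5 kb. The 49 members of the last 30 Mb had a median width of 30.1 kb, close to that of the start and the highest of the 7 chromosomes at that end. Wide regions were few there, however. Only 5 of the 49 (10.2%) were at least 80 kb wide, number 6 of 7 at that end, and the widest spanned 170 kb. Regions of at least 80 kb held 29.8% of the region length in the last 30 Mb, against 79.3% in the first 30 Mb. Over the whole of 1H, the widest 5 members held 21.5% of the joined length and 31 regions were enough to hold 50%. Regions of at least 80 kb numbered 55 and held 62.2% of the joined length on 1H, against 51.0% on 4H and 70.9% on 7H, the extremes of the other chromosomes. Of these 55 regions, 21 lay in the first 30 Mb, where they were 25.0% of the members, and 34 beyond, where they were 9.86%. The share of such regions beyond 30 Mb was the lowest of the 7 chromosomes, the others lying between 10.4% and 16.2%. In the first 30 Mb the share on 1H was number 5 of 7, with 29.5% on 2H the highest and 1.52% on 4H the lowest.

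The fold of a peak is the authors' value of its signal over the background that the peak caller estimated, and each replicate is represented in a member by its peak of highest fold. In the first 30 Mb the median over the 84 members was 3.92, 3.73 and 3.95 in replicates 1, 2 and 3 (3.87 ± 0.11, SD, n = 3). Beyond 30 Mb the median over 345 members was 2.74, 2.64 and 2.74 (2.70 ± 0.058, SD, n = 3). The start had the higher median in every replicate. A mean fold of at least 5 was found in 32 of the 84 members at the start (38.1%) and in 54 of the 345 beyond (15.7%), and a mean fold under 3 in 28 (33.3%) and 216 (62.6%). Over the whole chromosome 20.0% of members had a mean fold of at least 5, a little above the range of 12.6% to 19.4% of the other 6 chromosomes. In the first 30 Mb the median fold of 1H was number 3 of 7, after 2H (4.12 ± 0.11) and 7H (3.89 ± 0.22), and the values of 1H and 7H overlapped within their spread (SD, n = 3 each).

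Wide members had higher folds as a rule, with Spearman's rho between width and mean fold of 0.799 over the 84 members of the start and 0.610 over the 345 others. Both measures come from the same libraries and the members are not independent, so no p is given. The 55 regions of at least 80 kb had a median mean fold of 7.61 and the other 374 members had 2.63. Width and fold were still separable. Of the 55 wide regions, 18 had a mean fold under 5, and 14 of these lay beyond 30 Mb. Conversely, 49 members narrower than 80 kb had a mean fold of at least 5. All 10 members with a mean fold of at least 20 were at least 80 kb wide, and 6 of them lay in the first 30 Mb.

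**Figure D4:**
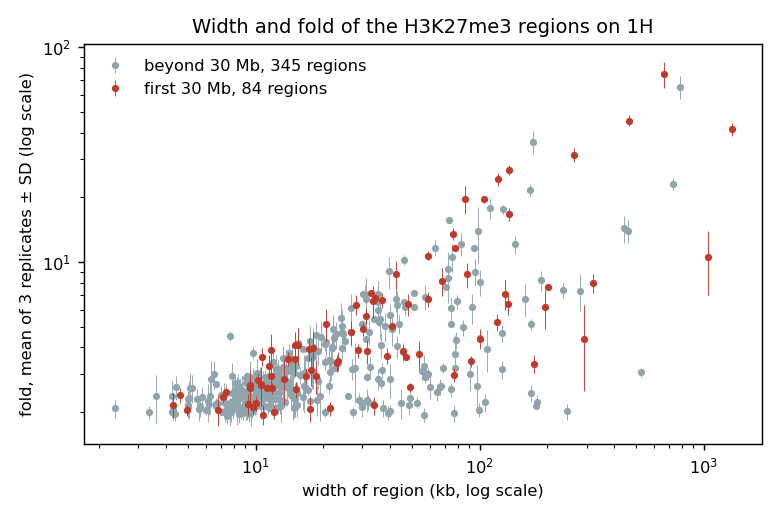
Width in kb (horizontal, log scale) and fold (vertical, log scale; mean of 3 replicates, error bars SD) of the 84 members of 1H in the first 30 Mb (red) and the 345 beyond (grey). Most members are narrow and low, while a few regions beyond 100 kb spread from folds near 2 to 74.7.

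The member with the highest fold rank of the chromosome lay from 3646597 to 4312458, a region of 666 kb near the start with folds of 86.4, 71.2 and 66.4 in replicates 1, 2 and 3 (74.7 ± 10.4, SD, n = 3). The one from 12139267 to 12605532, of 466 kb, had folds of 43.6, 44.5 and 48.4. That from 18021244 to 19353917 was the widest of 1H and had folds of 44.4, 38.4 and 41.6. The first of these was well above the other pair in every replicate, and the folds of that pair overlapped. The member from 1184620 to 1447236, of 263 kb, had folds of 33.7, 31.9 and 29.1. The member ranked 5 at the start, from 12843530 to 12979394 and 136 kb wide, had folds of 28.6, 25.8 and 26.2. The folds of the last 2 did not overlap, the one ranked 4 being higher in every replicate.

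The widest members of the start were in part the same regions, namely those of 1333, 666 and 466 kb. Number 2 by width, from 27533811 to 28578737, spanned 1045 kb with folds of 11.7, 6.58 and 13.2, and replicate 2 was the low one. Replicates 1 and 3 had 2 peaks each in it and replicate 2 had 1, so the highest of 2 peaks is set against a single peak. This member had the largest ratio of highest to lowest fold between replicates of all 429 members, 2.01. Number 5 by width, from 7225569 to 7545788, spanned 320 kb with folds of 8.67, 7.06 and 8.17. The widest members of the start therefore included both the strongest region of the chromosome and regions of moderate fold.

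Beyond 30 Mb the strongest member lay from 352594008 to 353374721, with a width of 781 kb and folds of 56.2, 67.2 and 72.2 in replicates 1, 2 and 3 (65.2 ± 8.2, SD, n = 3). Its replicate 1 value was the lowest, whereas for the strongest member of the start replicate 1 was the highest, and the values of the 2 regions overlapped. Also among the 5 of highest fold rank beyond 30 Mb were a member from 348344622 to 348517475, with folds of 34.3, 33.2 and 41.1, and one from 349924843 to 350092178, with folds of 20.3, 23.0 and 21.9. The strongest of these regions supplied most of the covered sequence of the window from 350 to 360 Mb. The member from 33630990 to 34361862, of 731 kb, had folds of 23.6, 21.4 and 24.2 and belongs to the dense window 4. The last, from 374939527 to 375067090, was 128 kb wide with folds of 16.7, 18.0 and 18.1.

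Of the other wide members beyond 30 Mb, the one from 73062384 to 73505334 was 443 kb wide with folds of 12.9, 13.5 and 16.7. The one from 132069701 to 132527132 was 457 kb wide with folds of 15.9, 12.7 and 13.4. The one from 181415826 to 181940388 was 525 kb wide but had folds of only 2.89, 3.12 and 3.18, close to the chromosome's median. These 3 regions supply most of the covered sequence in the windows from 70 to 80 Mb, from 130 to 140 Mb and from 180 to 190 Mb. Wide regions of high and of low fold were thus both found in the middle of 1H.

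The edges of the median member lay within a few kb of each other in the 3 replicates. The rule asks for a peak of every replicate in each member, so some agreement in position is built in. The part of a member that all 3 replicates covered had a median of 74.6% of its width. Peaks were joined wherever they overlapped or touched, so this part can be small. It was 2.37% in the member from 159887703 to 159944013, one of the weakest by fold. The outermost starts of the 3 replicates differed by 1.55 kb in the median member and their outermost ends by 1.89 kb. In 388 of 429 members (90.4%) each replicate had a single peak. The part of a member that all 3 replicates covered had a median of 92.4% of the width in regions of at least 80 kb and 71.6% in narrower ones. The ratio of the highest to the lowest fold in a member had a median of 1.22, which was also near that of the other chromosomes (1.21 to 1.24), and exceeded 1.5 in 29 members. After the member of ratio 2.01 already given, the next were one from 3019729 to 3311812 and one from 77852236 to 77879923. In the former, replicates 1, 2 and 3 had 8, 1 and 2 peaks and folds of 6.59, 3.31 and 3.30. The latter had 1 peak in every replicate and folds of 4.19, 3.26 and 2.19. Across the 429 members, Spearman's rho of the folds was 0.844 between replicates 1 and 2. It was 0.876 when replicate 1 was set against replicate 3, and 0.869 when replicate 2 was set against replicate 3. The points share their libraries, and no p is given. Replicate 2 had the lowest of the 3 folds in 198 members and the highest in 99.

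Neighbouring members were closer at the start. The median distance from a member to the one before it was 138 kb in the first 30 Mb and 834 kb beyond. Distances under 50 kb made up 21 of 83 (25.3%) at the start and 26 of 345 (7.54%) beyond. Over the whole of 1H the median distance was 559 kb, longer than on 7H (497 kb) and 6H (548 kb) and shorter than on the other 4 chromosomes, of which 4H had the longest (856 kb).

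At the limits of the rule, the weakest members by mean fold were a region from 93743781 to 93751273 with folds of 2.10, 1.86 and 1.80 and one from 159887703 to 159944013 with folds of 2.11, 1.85 and 1.87. The strongest regions with a peak in exactly 2 lists, which are not members, lay from 335033427 to 335039782 with folds of 2.88 and 2.29 in replicates 2 and 3, and from 342307944 to 342317143 with 2.05 and 3.07. The folds inside and outside the rule thus overlap. On either side of the 30 Mb limit, the last member before it ended at 29452107 with folds of 2.49, 2.63 and 2.67, and the first after it started at 30231002 with folds of 2.10, 1.88 and 2.40.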

How the data were processed

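Peaks were called on each of the 3 ChIP libraries separately, as the deposited lists show, and the submitters' processing notes name bcl2fastq, HISAT2 2.1.0, GATK, MACS2 and deepTools without their roles. The genome build, the settings and the use of the input libraries are not given in the sources used here. The lists are in the broadPeak layout of 9 columns without a header. The deposited fold (column 7) was read as the ratio of a peak's signal to the peak caller's background, and the deposited −log10 q (column 9) was used only to filter peaks. The deposited −log10 p (column 8) was used only to pick the strongest peaks when the lists were brought to equal length. These values are the authors' own. The lists hold no reads, so no counting interval was computed.

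Peaks that overlapped or touched were merged over the 3 lists, and regions on 1H with a peak in all 3 were kept. The largest peak end in any list stood for the chromosome's length. A covered share is the percentage of a stretch under a replicate's own peaks in the kept regions, and a region was assigned to a stretch by its midpoint. Positions are printed 1-based. The rest of 1H and the other 6 chromosomes served as the comparison, and no test was made, because the peaks that chose the regions are also the measurement and the labels give a single condition. Regions named are the 5 ranked highest by fold (mean percentile over the lists) and the 5 of greatest width in the first 30 Mb and beyond, the 3 with the largest fold ratio between replicates, the 5 most and 5 least covered windows, and those at the limits of the rule. Members and lists were chosen with earlier results of these data known. Genes were left out because no source names the build of the positions. The merging and coverage steps were tested on simulated lists. Python 3.11.15, numpy 2.4.6, pandas 2.3.3 and matplotlib 3.10.9 were used. The alternatives tried were thresholds on fold and q, other merging and membership rules, lists of equal length, other extents of the start and leaving out each replicate.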

Additional observations from a re-analysis of the deposited data

How the results depend on the processing

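In all, 8 results were recomputed under 79 alternatives, of which 34 moved a value by no more than the SD between replicates (a count by no more than 1.5 times), 42 moved it further and 3 turned a difference around. Merging across gaps of up to 1 kb moved none of the results. No paired analysis was possible because the input libraries gave no values of their own here and no result comes from a test. A minimum fold of 3 left 152 members on 1H, a covered share of 2.77% of 1H, 22.7% of its first 30 Mb and 1.53% beyond, 73.5% of the covered length before the chromosome's midpoint, a median width of 42.2 kb and a median fold of 5.39. At a minimum −log10 q of 5 these were 171, 2.85%, 23.4%, 1.58%, 73.8%, 38.4 kb and 5.11. Both thresholds remove weak and narrow peaks by construction. With a peak in at least 2 of the 3 lists the shares were 3.91%, 25.2%, 2.59% and 67.7%, with 11.7 kb and 2.54. For the stretches that all 3 lists covered they were 3.34%, 23.2%, 2.12% and 69.3%, with a median of 9.68 kb. With the same number of peaks per list the covered share was 3.62%, that beyond 30 Mb 2.32%, the share before the midpoint 69.1% and the median fold 2.96. Leaving out each replicate in turn gave between 442 and 545 members, covered shares from 3.71% to 3.99% of 1H, from 24.7% to 25.6% of the first 30 Mb and from 2.42% to 2.66% beyond, a share before the midpoint from 67.7% to 67.9%, median widths from 12.2 to 13.8 kb and median folds from 2.51 to 2.77. With a replicate left out, a region needed a peak only in the 2 lists that remained, which is a looser rule. The highest count, 545, was that without replicate 1, which had the fewest peaks on 1H. The first 20 Mb were covered for 28.5% and the first 50 Mb for 18.5%. The first 40% of the length held 64.3% of the covered sequence. Without the 3 widest regions the first 30 Mb were covered for 14.9%. The lead of 1H over the highest other chromosome at the start, 2.71 percentage points, became -0.57 without the 3 widest regions, -0.64 over the first 40 Mb and -1.41 over the first 50 Mb; these alternatives and those of this difference were chosen after seeing the data. Over the first 20 Mb it was 0.31 points, close to the spread between replicates of 0.27. With the first 30 Mb kept, the lead was 3.71 points at a minimum fold of 3 and 3.99 at a minimum −log10 q of 5. Under the other merging and membership rules, with lists of equal length and without each replicate in turn, it lay between 2.61 and 2.89. The depth of the libraries is unknown, and its part in these values was not tested.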

Other observations

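On 1H a further 155 regions had a peak in 2 lists and 262 in 1 list. Together with the members they make up the 846 joined regions, but by length they held only 6.61% and 5.97% of the joined sequence, against 87.4% in the members. Their median widths were 7.51 kb and 3.89 kb. They were less concentrated at the start than the members, with 11.6% and 11.1% of them in the first 30 Mb, against 19.6% of the members. On the other 6 chromosomes the same shares were 8.61%, 6.39% and 14.3%, in the same order. No test was made of this.

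Among the regions of 2 lists on 1H, 113 had their peaks in replicates 2 and 3, while 30 lacked a peak in replicate 2 alone and 12 lacked one in replicate 3 alone. Of the regions of 1 list, replicate 3 had 153, replicate 2 had 83 and replicate 1 had 26. The widest region that was not a member spanned 101 kb and had peaks in replicates 2 and 3.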
